A study of Oryza sativa with 6 samples.

Results

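The 2 genes described here are *Os01g0975900* and *Os03g0146100*, both of which carry the symbol *OsTIP1* in the deposited table of rice leaf expression. They were taken from that table by their identifiers, 2 genes of the 925 listed. The table holds only genes that the authors had called as changed between the mutant and the wild type on these same libraries. Both genes were thus selected on their counts and FPKM in the comparison given below, and their differences are a description with no test. Leaf RNA had been sequenced from 3 *Dap1* and 3 WT samples at the booting stage, which the paper calls biological replicates. Whether a sample was 1 plant or a pool is not given in the sources used here. *Dap1* is a dominant dwarf mutant with a T-DNA inserted upstream of *OsWUS*, a homeobox gene of meristem development, in the *japonica* variety Zhonghua11 (ZH11). The mutant is 1 insertion line, no homozygous plant of which was found. In the paper all genotyped plants with the mutant phenotype were heterozygous for the insertion, while the labels do not give the zygosity of the sequenced plants. WT was ZH11 itself, and all plants were grown in the field. The sources used here give no day or hour of sampling for either group. The paper reports slower growth and a later heading date in *Dap1*. Leaves of the same stage may thus differ in date and plant age between the groups, which cannot be told apart from the genotype here.

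Aquaporins are membrane channels through which water, and in some of them urea or other small uncharged solutes, crosses a membrane. Plants hold several families of them, some of which are named for where they were first found. The tonoplast intrinsic proteins (TIPs) lie mostly in the membrane of the vacuole and the plasma membrane intrinsic proteins (PIPs) mostly at the cell surface. TIPs let the vacuole, which fills most of a mature plant cell, take up and release water, and they are among the most abundant tonoplast proteins. The TIP1 proteins of *Arabidopsis* are commonly used as markers of the large central vacuole.

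*Os01g0975900* lies on chromosome 1 by its identifier and is described in the table as similar to the maize tonoplast protein ZmTIP1-2. *Os03g0146100* lies on chromosome 3 and is described as a tonoplast intrinsic protein and tonoplast water channel. Both carry the GO terms vacuole, vacuolar membrane and water channel activity. *Os01g0975900* alone of the pair also carries urea transmembrane transporter activity, and *Os03g0146100* alone carries water transport. Neither has a KEGG class. The genome build is not given in the sources used here, so no coordinates are given. As relatives with the same symbol the 2 genes may share reads, which the authors' counting could divide between them, so the division between the 2 is uncertain. This was not tested here.

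In the *Dap1* libraries 601642 to 666483 fragments were counted on the 925 listed genes, and in the WT libraries 244181 to 314019, while totals over all genes are unknown. The relative library sizes ranged from 0.949 to 1.053 in *Dap1* and from 0.860 to 1.105 in WT, as the ratio of count to FPKM shows (FPKM is the fragment count divided by transcript length and by the mapped fragments of the library). *OsWUS* (*Os04g0663600*, listed under the symbol WOX1) was counted 77, 100 and 105 times in *Dap1* leaves and 0 times in each WT library. No library thus went against its label, but *OsWUS* too was listed for this contrast, so this is no independent check. Set against a floor of 3 counts in each WT library, *OsWUS* was at least 30.2-fold higher in *Dap1*.

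Both *OsTIP1* genes were more highly expressed in *Dap1* leaves than in WT leaves. *Os01g0975900* was 3.46-fold higher in *Dap1* and *Os03g0146100* was 2.31-fold higher, as ratios of mean FPKM. For *Os01g0975900*, the 3 *Dap1* libraries had 16333, 17736 and 18443 counts and the 3 WT libraries had 5504, 4354 and 4979 counts. Its FPKM was 776, 776 and 789 in *Dap1* leaves and 225, 228 and 224 in WT leaves. The groups lay far apart, and the lowest *Dap1* library was 3.41-fold above the highest WT library. Its mean FPKM was 780 ± 7.30 in *Dap1* and 226 ± 1.81 in WT (SD, n = 3 each). For *Os03g0146100*, the *Dap1* libraries had 7708, 8001 and 8554 counts and the WT libraries had 3706, 3012 and 3557 counts. Its FPKM was 425, 401 and 415 in *Dap1* leaves and 177, 178 and 183 in WT leaves. These groups were also apart, with the lowest *Dap1* library 2.19-fold above the highest WT library. Its mean FPKM was 413 ± 12.3 in *Dap1* and 179 ± 3.09 in WT (SD, n = 3 each).

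**Figure D1:**
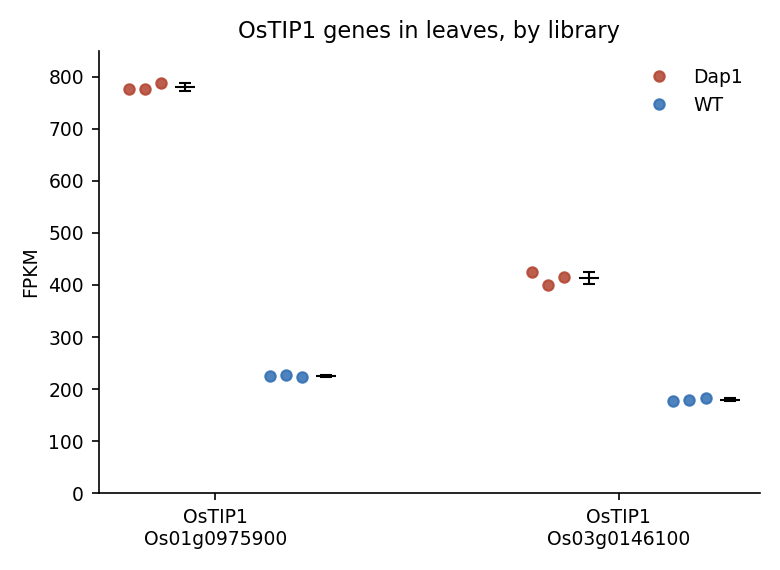
FPKM of *Os01g0975900* and *Os03g0146100* in each of the 3 *Dap1* and 3 WT libraries (points), with the mean and SD of each group in black. The *Dap1* libraries lie between 776 and 789 for *Os01g0975900* and between 401 and 425 for *Os03g0146100*, all above the WT libraries.

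Counts were fitted over all 925 listed genes with edgeR's quasi-likelihood method. The log2 fold change (*Dap1* over WT) was 1.79 (standard error 0.023) for *Os01g0975900* and 1.21 (standard error 0.029) for *Os03g0146100*. Under a Benjamini-Hochberg adjusted p-value of 0.05 and an absolute log2 fold change of 1, both members were called, as were 98.6% of the listed genes, and 56.9% were called higher in *Dap1*. The FPKM of the 2 groups did not overlap for either member, nor for 99.0% of the listed genes. Because the authors chose the table on this contrast, nothing is read from these counts. When any 1 of the 6 libraries was left out, the log2 fold change stayed between 1.78 and 1.80 for *Os01g0975900* and between 1.18 and 1.23 for *Os03g0146100*.

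The size of both differences rests on how the libraries are scaled. With TMM factors taken from the listed genes themselves, the log2 fold changes were 1.34 for *Os01g0975900* and 0.75 for *Os03g0146100*, and with DESeq2's size factors they were 0.94 and 0.36. Both genes were still higher in *Dap1*, but *Os03g0146100* was under the threshold of 1 with either scaling and *Os01g0975900* with the second. These scalings take the listed genes as mostly unchanged, a premise that a table of genes called as changed does not meet. They move the median log2 fold change of all listed genes by -0.45 and -0.85. That median was 1.15 with the library sizes used here. With 526 listed genes called higher and 386 lower, it lies near the lower edge of the higher genes and is no typical change. A larger value than that of *Os03g0146100* was held by 439 listed genes, and 274 had a larger one than *Os01g0975900*.

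**Figure D2:**
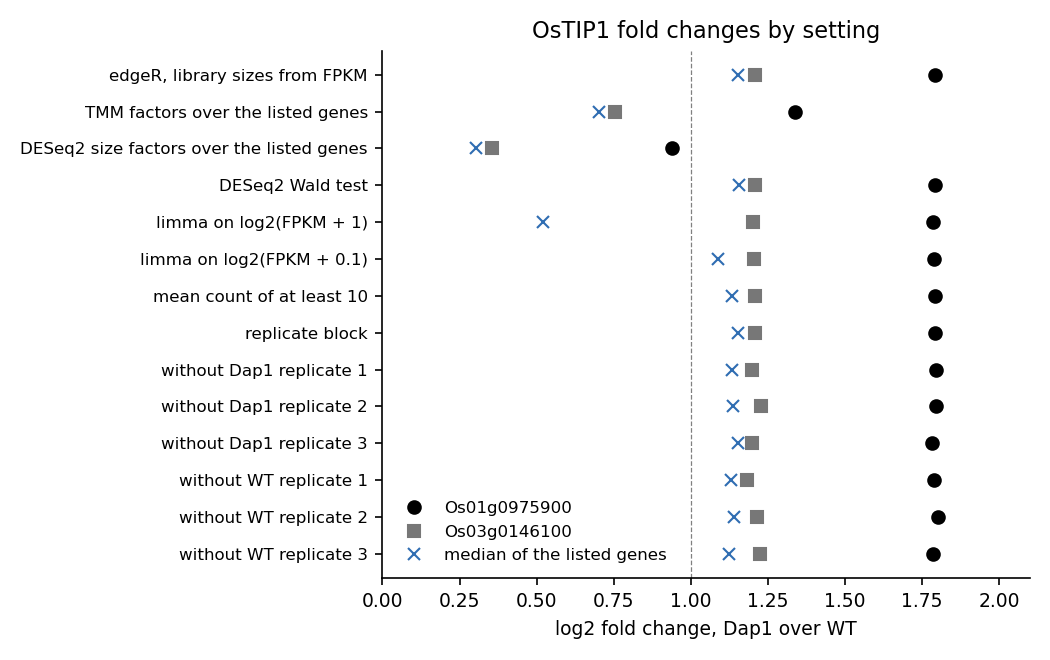
Log2 fold change (*Dap1* over WT) of the 2 *OsTIP1* genes and the median over the listed genes, for each way of fitting or scaling, with the threshold of 1 as a dashed line. Both genes move left with the listed genes under TMM factors (1.34 and 0.75) and DESeq2 size factors (0.94 and 0.36), and stay between 1.78 and 1.80 and between 1.18 and 1.23 with each library left out.

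A ratio between 2 genes within a library does not depend on that scaling. The FPKM of *Os01g0975900* divided by that of *Os03g0146100* was 1.83, 1.94 and 1.90 in *Dap1* leaves and 1.28, 1.27 and 1.23 in WT leaves. In every library *Os01g0975900* was thus the higher of the pair, and by a wider margin in *Dap1*, where the lowest ratio lay above the highest ratio in WT. The mean ratio was 1.89 ± 0.057 in *Dap1* and 1.26 ± 0.028 in WT (SD, n = 3 each). From counts in place of FPKM the ratio was 2.16 ± 0.049 in *Dap1* and 1.44 ± 0.043 in WT (SD, n = 3 each), a scale on which gene length is not taken out. The 2 fitted log2 fold changes differed by 0.58. This difference was between 0.56 and 0.61 with each library left out. *Os01g0975900* made up 65.4% ± 0.69 of the summed FPKM of the pair in *Dap1* and 55.7% ± 0.56 in WT (SD, n = 3 each). The sum itself was 1194 ± 14.9 FPKM in *Dap1* and 405 ± 2.59 FPKM in WT (SD, n = 3 each).

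Both genes were among the most abundant of the listed ones. Ranked by FPKM, *Os01g0975900* was 8th of the 925 genes in each *Dap1* library and 12th in each WT library. *Os03g0146100* was 14th in each *Dap1* library and 15th in each WT library. Next above *Os01g0975900* in *Dap1* stood *OsRZFP34* (*Os01g0719100*), a RING zinc finger gene, at 788 ± 7.81 FPKM (SD, n = 3), and the ranges of the 2 genes overlapped. Next below it came *OsDHAR1* (*Os05g0116100*), a dehydroascorbate reductase of the antioxidant cycle, at 660 ± 11.5 FPKM (SD, n = 3), with no overlap. For *Os03g0146100* neither neighbour in *Dap1* overlapped with it. In WT no neighbour in the order overlapped with either gene. There *Os01g0975900* stood between *OsTPS10* (*Os03g0348200*, 239 ± 6.20 FPKM) and *OsDHAR1* (221 ± 2.13 FPKM). *Os03g0146100* stood in WT between *OsVPE2* (*Os01g0559600*, a vacuolar processing protease, 211 ± 5.32 FPKM) and *OsRZFP34* (163 ± 2.36 FPKM) (SD, n = 3 each).

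In absolute terms *Os01g0975900* was 555 FPKM higher in *Dap1*, the 8th largest increase among the listed genes, and *Os03g0146100* was 234 FPKM higher, the 17th largest. The pair made up 4.86% ± 0.072 of the FPKM summed over the listed genes in *Dap1* and 3.59% ± 0.028 in WT (SD, n = 3 each). By log2 fold change the pair stood lower in the order, since 274 listed genes had a larger value than *Os01g0975900* and 439 had a larger value than *Os03g0146100*. Among the 50 listed genes of highest mean FPKM, 40 were higher in *Dap1* and the median log2 fold change was 1.69. Of these, 22 had a larger log2 fold change than *Os01g0975900* and 35 had a larger one than *Os03g0146100*.

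**Figure D3:**
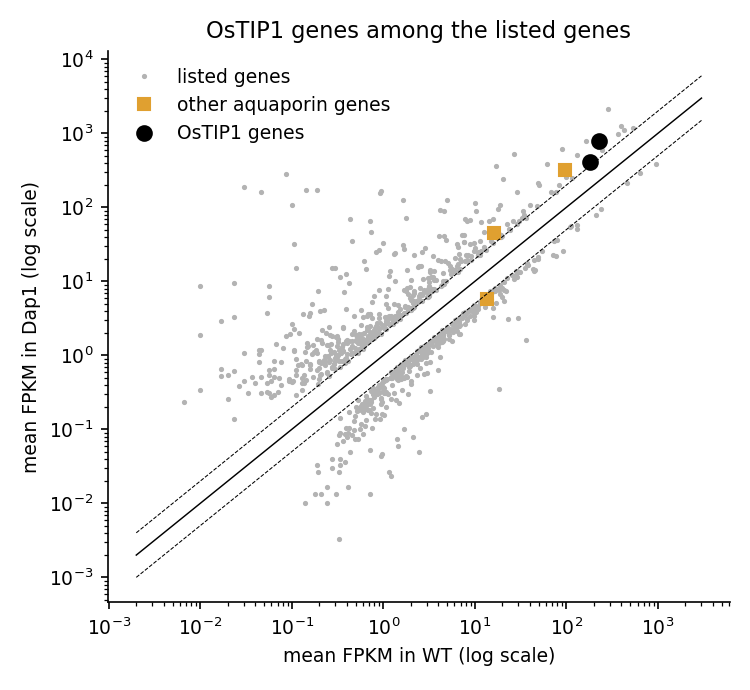
Mean FPKM in *Dap1* against mean FPKM in WT, both on log axes, for the 888 listed genes with an FPKM above 0 in both groups (37 others are not drawn). The solid line marks equal values and the dashed lines a fold change of 2 either way. The 2 *OsTIP1* genes (black) lie at the abundant end, at 780 against 226 FPKM and at 413 against 179 FPKM.

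The list of aquaporin genes took every gene with the GO function water channel activity or an aquaporin symbol, and 5 of the listed genes were in it. With edgeR and the thresholds above, 4 of the 5 were called higher in *Dap1* and 1 lower. Over all listed genes 56.9% were called higher and 41.7% lower. The median log2 fold change was 1.48 over the 5 genes, which is the value of *OsPIP2*. It was 1.15 over all listed genes, near the lower edge of the genes called higher. With DESeq2's size factors only *OsPIP1* of the 5 was called. Of the 925 listed genes, 644 were called with that scaling, 251 higher and 393 lower. The other members of the rice family were not analysed here, so the list does not describe the family as a whole.

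The third TIP gene listed was *OsTIP2* (*Os06g0336200*), described as a delta-tonoplast intrinsic protein. It was counted 7014, 7371 and 7735 times in *Dap1* leaves and 2402, 1898 and 2237 times in WT leaves. Its FPKM was 321 ± 5.49 in *Dap1* and 97.0 ± 1.16 in WT (SD, n = 3 each), and the fitted log2 fold change was 1.73 ± 0.028 (standard error). Its level was thus below that of both *OsTIP1* genes in both groups. The ratio of *Os01g0975900* to *OsTIP2* was 2.43 ± 0.040 in *Dap1* and 2.33 ± 0.036 in WT (SD, n = 3 each), a shift of a few percent in which the libraries did not overlap. The ratio of *Os03g0146100* to *OsTIP2* was 1.29 ± 0.018 in *Dap1* and 1.85 ± 0.014 in WT (SD, n = 3 each). *Os01g0975900* therefore stood nearer to *OsTIP2* in its difference between the groups than to the gene that shares its symbol. Summed over the 3 TIP genes, the FPKM was 1515 ± 20.2 in *Dap1* and 502 ± 3.73 in WT (SD, n = 3 each).

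**Figure D4:**
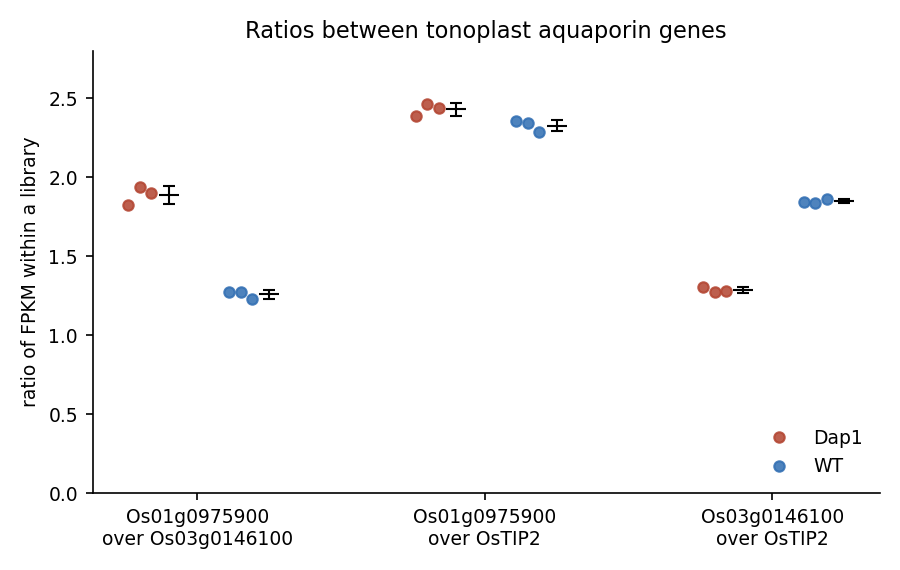
Ratio of FPKM within each library between the 2 *OsTIP1* genes, and of each to *OsTIP2*, in 3 *Dap1* and 3 WT libraries (points), with the mean and SD in black. The ratio between the *OsTIP1* genes is higher in *Dap1* (1.89 against 1.26), that of *Os01g0975900* to *OsTIP2* is close in both groups (2.43 against 2.33), and that of *Os03g0146100* to *OsTIP2* is lower in *Dap1* (1.29 against 1.85).

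The plasma membrane aquaporins of the list differed between the groups in opposite directions. *OsPIP2* (*Os04g0233400*) was counted 1028, 1180 and 1109 times in *Dap1* leaves and 392, 351 and 419 times in WT leaves. Its FPKM was 44.7 ± 1.94 in *Dap1* and 16.1 ± 1.37 in WT (SD, n = 3 each), and the fitted log2 fold change was 1.48 ± 0.065 (standard error). *OsPIP1* (*Os02g0823100*) was the aquaporin that was lower in *Dap1*, with 136, 150 and 152 counts against 367, 268 and 357 in WT. Its FPKM was 5.87 ± 0.050 in *Dap1* and 13.5 ± 0.886 in WT (SD, n = 3 each), and the fitted log2 fold change was -1.21 ± 0.10 (standard error). Every TIP gene of the list was thus higher in *Dap1*, at 97.0 to 226 FPKM in WT, while the PIP genes were at 13.5 and 16.1 FPKM in WT. The direction of these 5 genes was the same with TMM and DESeq2 size factors. Both PIP genes carry the GO term response to water deprivation, which neither *OsTIP1* gene carries.

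**Figure D5:**
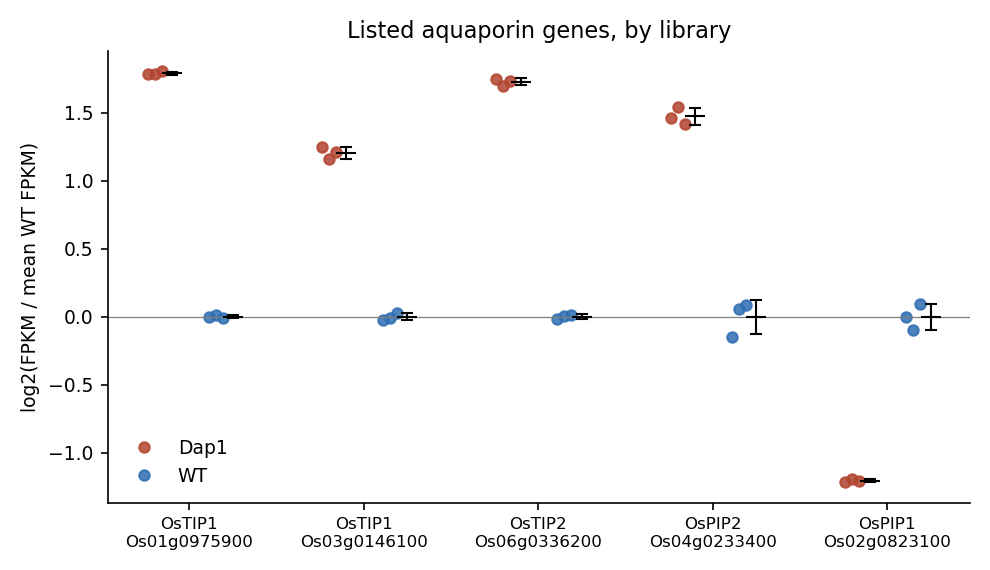
Log2 of FPKM over the mean WT FPKM for the 5 listed aquaporin genes, in each of the 3 *Dap1* and 3 WT libraries (points), with the mean and SD in black. The *Dap1* libraries lie near 1.79, 1.21, 1.73 and 1.48 for the 2 *OsTIP1* genes, *OsTIP2* and *OsPIP2*, and near -1.21 for *OsPIP1*.

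The genes whose pattern was most like each member were sought among the other 369 genes whose FPKM reached 1 in all libraries. The measure of unlikeness was the root mean square difference of log2 FPKM over the 6 libraries, after each gene was centred on its own mean. Since all the genes were listed for the same contrast, mainly the size of the difference between the groups decides this order. Nearest to *Os01g0975900* was *OsTIP2*, at a distance of 0.036. It was followed by *Os02g0139100*, described as an activator of Hsp90 ATPase (0.038), *OsDjA5* (*Os03g0787300*, a DnaJ homolog, 0.042), the plastid chaperonin *OsCPn60alpha1* (*Os12g0277500*, 0.052) and the phosphoenolpyruvate carboxylase *Osppc2b* (*Os09g0315700*, 0.056). *Os02g0139100*, *OsDjA5* and *OsCPn60alpha1* are described as chaperones or cochaperones. The share of such genes among those ranked was not counted, so nothing is read from this. *OsDjA5* was also of like abundance, with 814 ± 10.5 FPKM in *Dap1* and 247 ± 3.43 FPKM in WT (SD, n = 3 each).

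The genes nearest to *Os03g0146100* were others. They were *OsCCT25* (*Os06g0699600*, a CCT domain gene, 0.025), the non-coding transcript *Os02g0731300* (0.035), *Os02g0756800* of the phosphate-induced protein family (0.039), *Os09g0294000*, an aspartokinase and homoserine dehydrogenase of amino acid synthesis (0.042), and the dynamin-related *OsDRP1C* (*Os10g0567800*, 0.042). Their log2 fold changes ranged from 1.22 to 1.28, and none was as abundant as *Os03g0146100*. *Os09g0294000* came closest, with 199.8 ± 3.07 FPKM in *Dap1* and 82.4 ± 0.453 FPKM in WT (SD, n = 3 each). The 2 *OsTIP1* genes were 0.29 apart, so *Os03g0146100* was only 90th in likeness to *Os01g0975900*, and *Os01g0975900* was 126th in likeness to *Os03g0146100*.

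The GO term vacuolar membrane was given for 13 listed genes, of which 11 were called higher in *Dap1*, 1 was called lower and 1 was under the fold threshold. Over all listed genes 56.9% were called higher and 41.7% lower. The 13 genes include both *OsTIP1* genes and *OsTIP2*. The median log2 fold change of the 13 was 1.79, which is the value of *Os01g0975900* itself, against 1.15 over all listed genes. Setting the 2 genes with 3 counts or fewer in every WT library at their bound could not move it, since both bounds lie above it. The gene that was lower was *OsMTP8.1* (*Os03g0226400*), a manganese transporter of the tonoplast, with 35.8 ± 1.02 FPKM in *Dap1* and 78.4 ± 1.41 FPKM in WT (SD, n = 3 each). The gene under the threshold was *OsISC23* (*Os02g0774300*), described as a mitochondrial heat shock protein, at 0.99 (standard error 0.034). Of the members whose mean count reached 50, the upper end was held by *Os05g0457000*, described as a cytochrome c oxidase subunit, which was at least 36.3-fold higher in *Dap1*, and *OsISC24* (*Os03g0113700*), also described as a mitochondrial heat shock protein, at 2.14 (standard error 0.055). These last 3 descriptions name other compartments than the vacuole. *HMA4* (*Os02g0196600*), a copper-transporting ATPase named here after its value was seen, had a log2 fold change of 1.81 (standard error 0.079) at 11.6 ± 0.571 FPKM in *Dap1* and 3.29 ± 0.212 FPKM in WT (SD, n = 3 each). The *OsTIP1* genes and *OsTIP2* were the 3 most abundant of the 13 genes in both groups.

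A GO term naming urea was carried by 2 listed genes, *Os01g0975900* and the high-affinity urea transporter *OsDUR3* (*Os10g0580400*). They differed in direction, since *OsDUR3* was counted 172, 137 and 145 times in *Dap1* leaves and 409, 256 and 316 times in WT leaves, and had a log2 value of -1.13 (standard error 0.12) for *Dap1* over WT. No tonoplast proton pump and no expansin, the wall-loosening protein of growing cells, was found among the listed genes by the descriptions searched.

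Genes of other responses also differed between the groups. Response to heat is a GO term of 27 listed genes, of which 26 were called higher in *Dap1* and 1, the catalase gene *CATA1*, was called lower, against 56.9% higher and 41.7% lower over all listed genes. Their summed FPKM was 2652 to 2667 in the *Dap1* libraries and 485 to 495 in the WT libraries. None of the 5 aquaporin genes carries that term, and the part of the heat response in their values was not tested. Of the 28 genes whose GO terms name water deprivation, osmotic stress, salt stress or desiccation, 23 were called higher and 4 lower, to be read against the same shares. However, 18 of them were also genes of the heat term, that is 64.3% of these 28 genes and 66.7% of the heat genes. The median log2 fold change of the 28 genes was 3.47, or 3.24 with genes of 3 counts or fewer in a whole group at their bound, and that of all listed genes was 1.15 either way. *OsPIP2* and *OsPIP1* were the only aquaporins among them.

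Markers of cell types could be read only as far as they were listed. The leaf marker search found *PSBS2* (*Os04g0690800*), a photoprotection protein of photosystem II, at 255 ± 4.84 FPKM in *Dap1* and 99.0 ± 1.76 FPKM in WT (SD, n = 3 each). It also found *PsbR* and *OsPsbR2*, both under 4 FPKM in either group by the mean, and *GHD7*, which matched only through the name of its domain. No young panicle marker was listed. The vascular and secondary wall search found 1 laccase gene, *Oslacc* (*Os01g0842400*), at 1.21 ± 0.095 FPKM in *Dap1* and 0.430 ± 0.272 FPKM in WT (SD, n = 3 each). Of the genes searched as root markers only *OsIRO2*, an iron-deficiency regulator, was listed. It had 2, 0 and 0 counts in *Dap1* leaves and 114, 86 and 122 counts in WT leaves, and is not read as a sign of root tissue. In leaf samples, a larger share of cells that express a gene and more of its RNA per cell cannot be told apart, for the *OsTIP1* genes as for the rest.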

How the data were processed

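Per the paper's methods, reads were filtered (Fastp), cleared of rRNA (Bowtie 2), aligned to Nipponbare (HISAT 2), assembled (Stringtie) and quantified (RSEM) by the authors. The versions, genome build, annotation release and use of strand are not given in the sources used here. The deposited table gives the authors' raw fragment counts and the authors' FPKM for the 925 genes they called. It also holds their group means, log2 fold changes, p-values and FDR, which were not used. None of the identifiers matched the RefSeq gene table (0 of 925).

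Each library's relative size was the median count divided by FPKM over 258 genes, those reaching an FPKM of 2 throughout. Counts were fitted with edgeR 4.0.16 in R 4.3.3 (glmQLFit, glmQLFTest), with neither a low-count filter nor a replicate block, and Benjamini-Hochberg adjustment covered all 925 genes. Standard errors are the absolute log2 fold change over the root of F. Adjusted p-values of the members are not printed, because the genes had been selected on this contrast. The fit was also run on simulated counts in which most genes were unchanged, unlike in this table, so that run does not bear on the values given here. For genes with at most 3 counts throughout a group, the fold was taken against 3 counts per library and is a bound, which covers counting error only. DESeq2 1.42.0, limma 3.58.1, Python 3.11.15, pandas 2.3.3 and matplotlib 3.10.9 were also used.

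The members and gene lists were chosen with earlier results of these data known. The genes named were the members, all listed aquaporins, *OsWUS*, the 5 genes most like each member, and the 2 highest and 2 lowest genes of the further lists with a mean count of at least 50. Members of the marker lists, the neighbours in the order of FPKM and *HMA4* were named in addition, after their values were seen, and for the list of osmotic terms only its aquaporins are given by name with *CATA1*. The alternatives tried were library sizes from TMM or from DESeq2, the Wald test of DESeq2, limma with a pseudocount of 1 or of 0.1 on log2 FPKM, dropping genes with a mean count under 10, blocking on the replicate number, leaving out single libraries, and the ratio of mean FPKM.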

Additional observations from a re-analysis of the deposited data

How the results depend on the processing

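The scaling of the libraries moved the fold changes most. With TMM factors over the listed genes the log2 fold change was 1.34 for *Os01g0975900* and 0.75 for *Os03g0146100*, and with DESeq2's size factors 0.94 and 0.36. The aquaporin genes called were then 4 with TMM factors (3 higher, 1 lower) but 1 after DESeq2 scaling (lower), in place of 5. These scalings lower all listed genes alike, and a table of genes called as changed does not meet their premise of mostly unchanged genes. Of the listed genes, 526 were called higher and 386 lower with the library sizes used here, against 342 and 393 after TMM scaling and 251 and 393 after DESeq2 scaling. In place of 912 genes, limma called 394 on log2(FPKM + 1), a scale that shrinks the changes of low genes. When single libraries were left out, the log2 fold change of *Os01g0975900* ranged from 1.78 to 1.80, that of *Os03g0146100* from 1.18 to 1.23 and their difference from 0.56 to 0.61, while 5 aquaporin genes and 858 to 882 listed genes were called. Under the other alternatives the values of the 2 genes moved by less than the spread between replicates.

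The replicate numbers are not stated to mark shared plants or days. The deviations from the group means of same-numbered libraries had correlations of -0.05, -0.02 and 0.08 over 258 genes, so the numbers were not taken to pair the libraries. With the replicate block the log2 fold changes were 1.79 and 1.21, their difference was 0.58, and 5 aquaporin genes and 912 listed genes were called. The genes in the table had been selected on these libraries, so counts that stay high show no stability. Depth limits the counting precision of the 2 members to between 0.756% and 1.71% of their mean, and their fold changes far less than the scaling does.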

Other observations

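The spread of the *OsTIP1* genes between replicates was set beside what counting alone would give, and lay below it for *Os01g0975900* in WT and clearly above it for *Os03g0146100* in *Dap1*. For *Os01g0975900* the coefficient of variation of FPKM was 0.935% in *Dap1* and 0.800% in WT, where a Poisson count of the same mean has 0.756% in *Dap1* and 1.42% in WT. For *Os03g0146100* it was 2.97% in *Dap1* and 1.72% in WT, against Poisson values of 1.11% and 1.71%. FPKM also holds the transcript length used in each library, so the 2 values are not on the same scale. As counts divided by relative library size, *Os03g0146100* had 8007 ± 204 in *Dap1* and 3467 ± 98.4 in WT (SD, n = 3 each). On that scale its spread lay above the Poisson value in WT as well as in *Dap1*. Over the 72 listed genes whose mean count reached 1000, the coefficient of FPKM was also set beside the Poisson value. The median ratio was 1.24 in *Dap1* and 1.10 in WT, and 26 genes in *Dap1* and 30 in WT lay below the Poisson value. With 3 libraries a group such coefficients are themselves imprecise.

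The ratio of count to FPKM gives the transcript length that was used for 1 gene relative to another in the same library. For *Os01g0975900* relative to *OsTIP2* it lay between 0.974 and 0.980 in the 6 libraries. For *Os03g0146100* relative to *OsTIP2* it lay between 0.836 and 0.864, a wider range, with 0.842, 0.854 and 0.862 in *Dap1* leaves and 0.836, 0.864 and 0.853 in WT leaves. The length assigned to *Os03g0146100* thus varied between libraries, with no separation of the groups.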
